A study of Mus musculus with 16 samples.

Results

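The genes described here are 42 members of the pathways that feed carbon into the mitochondrial tricarboxylic acid (TCA) cycle and burn fatty acids in muscle. They were taken by gene symbol from a table of 26382 mouse genes, and all 42 were found. By role they were 4 subunits of the pyruvate dehydrogenase complex, 13 genes grouped under the TCA cycle and 4 of fatty acid uptake and activation. The TCA group included Mdh1, the cytosolic malate dehydrogenase. There were also 3 genes of the carnitine shuttle, 4 acyl-CoA dehydrogenases and 7 later enzymes of beta-oxidation. The rest were 3 genes of the electron transfer flavoprotein system, the uncoupling protein gene Ucp3 and 3 transcriptional regulators. Bulk poly(A) RNA had been sequenced from hamstring muscle of female C57BL/6 mice aged 8 to 10 weeks, taken 14 days after injection. Recombinant histidyl-tRNA synthetase (HRS), the Jo-1 autoantigen of anti-synthetase myositis, was the immunogen. The HRS legs were the left hamstrings of 5 mice (m862 to m866) given HRS at 3 to 5 mg/mL, and the contralateral PBS legs were the right hamstrings of the same 5 mice, which by their titles had received PBS. The PBS-only group held 4 libraries, both legs of 2 mice (m867 and m868) labelled as given PBS alone. Their values are given as right and left leg of mouse m867, then of mouse m868, and those of the HRS-MBP group as mouse m860, then m861. The HRS-MBP group held 2 mice (m860 and m861) whose titles name an MBP fusion protein at 2 to 3 mg/mL while their treatment label names HRS at 3 to 5 mg/mL, and the leg was not given for them. The labels' protocol speaks of injection into both hamstrings, 100 uL in all, whereas the titles of mice m862 to m866 separate an HRS leg from a PBS leg, and the titles were followed. The contralateral leg therefore comes from a mouse given HRS and is not a leg of an untreated animal.

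Pyruvate from glycolysis enters mitochondria and is converted to acetyl-CoA by the pyruvate dehydrogenase complex. Fatty acids are taken up, activated to acyl-CoA, carried across the mitochondrial membranes as carnitine esters and shortened by repeated cycles of beta-oxidation, which also yield acetyl-CoA. The TCA cycle oxidizes acetyl-CoA and passes electrons to the respiratory chain, and oxidative muscle fibres are rich in all of these enzymes. PGC-1alpha (Ppargc1a), ERRalpha (Esrra) and PPARalpha (Ppara) are known as regulators of their transcription.

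The values are normalized counts as deposited, on a scale shared by the 16 libraries, and levels of different genes are not compared because the table gives genomic rather than transcript length. Totals ran from 726797 to 1252358 normalized counts per library, and the step between low values gave an implied depth of about 8600000 to 73900000 reads. The libraries carried the RNA of skeletal muscle: the summed level of 26 sarcomere genes (structural genes of the fibre such as Acta1, Ttn and Myh4) was 188589.5 to 311833 normalized counts in the contralateral PBS legs and 233947 to 281335 in the PBS-only mice. It was 63396 to 256098 in the HRS legs and 104928 to 106759 in the HRS-MBP mice. Coordinates are those of the deposited table and match GRCm38. Of the 42 genes, 21 overlap another annotated gene, 15 of them on the opposite strand, and whether counting used strand is not given in the sources used here. In bulk RNA, fewer muscle fibres and less RNA of a gene per fibre cannot be told apart. Both libraries of mouse m866 stood apart. Its HRS leg had the highest sarcomere sum of the 5 HRS legs and the lowest macrophage, T cell and fibroblast marker sums. Its macrophage sum (1333 against 382 in the PBS leg) and its T cell sum (26.3 against 2.84) were still above those of all PBS libraries. The fibroblast sum of that HRS leg was 2752, below the 3137 in the PBS leg of the same mouse. The PBS leg of mouse m866 had the lowest sarcomere sum of the 5 contralateral legs and an adipocyte marker sum of 7286, against 838 to 1364 in the other 4. Results that rest on this mouse are therefore given with and without it, a choice made after the data had been seen.

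The first comparison asks how these genes differed between a leg given HRS and the other leg of the same mice. In the HRS legs, 39 of the 42 members were lower at an adjusted p below 0.05 and none was higher (limma on log2(normalized count + 0.5), Benjamini-Hochberg over 16414 genes). Of all genes tested, 25.9% were called lower. The median log2 fold change over the members was -0.94, a level at 52.2% of the contralateral leg, whereas the median over all tested genes was 0.08. Past a log2 fold change of -1 as well, 11 members were called, against 6.27% of all genes. The members without a call were Cd36, Fabp3 and Ucp3. Without both legs of mouse m866, all 42 members were called lower (31.3% of all genes), 33 of them past -1 (10.6% of all genes), and the median was -1.22. The count past -1 rested on single libraries, and it was 1 without the HRS leg of mouse m864 (3.39% of all genes), 30 without the HRS leg of mouse m866 (9.74%) and 20 without the PBS leg of mouse m866 (7.16%). With every library scaled to the same total, the median of all genes was 0.45 and that of the members -0.52; 34 members were then called lower (12.5% of all genes), none past -1 (1.97% of all genes), and Idh2, Lpl, Acadl, Acads and Ppara lost the call. The count past -1 was 0 with voom as well (1.53% of all genes, 34 members and 11.0% of all genes called lower), 5 with quantile normalization (9.94% of all genes, 38 members and 39.6% called lower) and 25 with the same upper quartile (7.80% of all genes, 42 members and 32.1% called lower).

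Read within each mouse, the members differed between animals and, within an animal, from gene to gene. In mice m862, m863, m864 and m865, every one of the 42 members was lower in the HRS leg than in the PBS leg. The median member stood at 50.7% of the PBS leg in mouse m862, 46.4% in mouse m863, 32.3% in mouse m864 and 42.6% in mouse m865. In mouse m866 it stood at 116%, with 36 members higher and 6 lower in the HRS leg. The median over all tested genes was 110.2% in that mouse and lay between 104% and 110.5% in the other 4. Single members ran from 15.993% (Ppargc1a) to 74.4% (Cd36) in mouse m864 and from 52.7% (Lpl) to 179.8% (Fabp3) in mouse m866. The 6 that were lower in all 5 mice were Cd36, Lpl, Acsl1, Echs1, Hadh and Etfb. The HRS leg of mouse m866 was the highest HRS leg for 41 members (Ucp3 was the exception), and that of mouse m864 was the lowest for 39 (all but Cd36, Lpl and Acsl1). With all mice, the HRS legs were all below the contralateral legs for 2 members and for 3.19% of all tested genes. Without mouse m866, they were so for 40 members, Cd36 and Ucp3 being the exceptions, and for 29.7% of all genes. The plot of HRS legs as a percent of PBS legs shows the 5 mice for every member. The 26 sarcomere genes followed the same order of mice, with medians of 50.3%, 37.2%, 23.1%, 36.7% and 133% for mice m862 to m866.

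**Figure D1:**
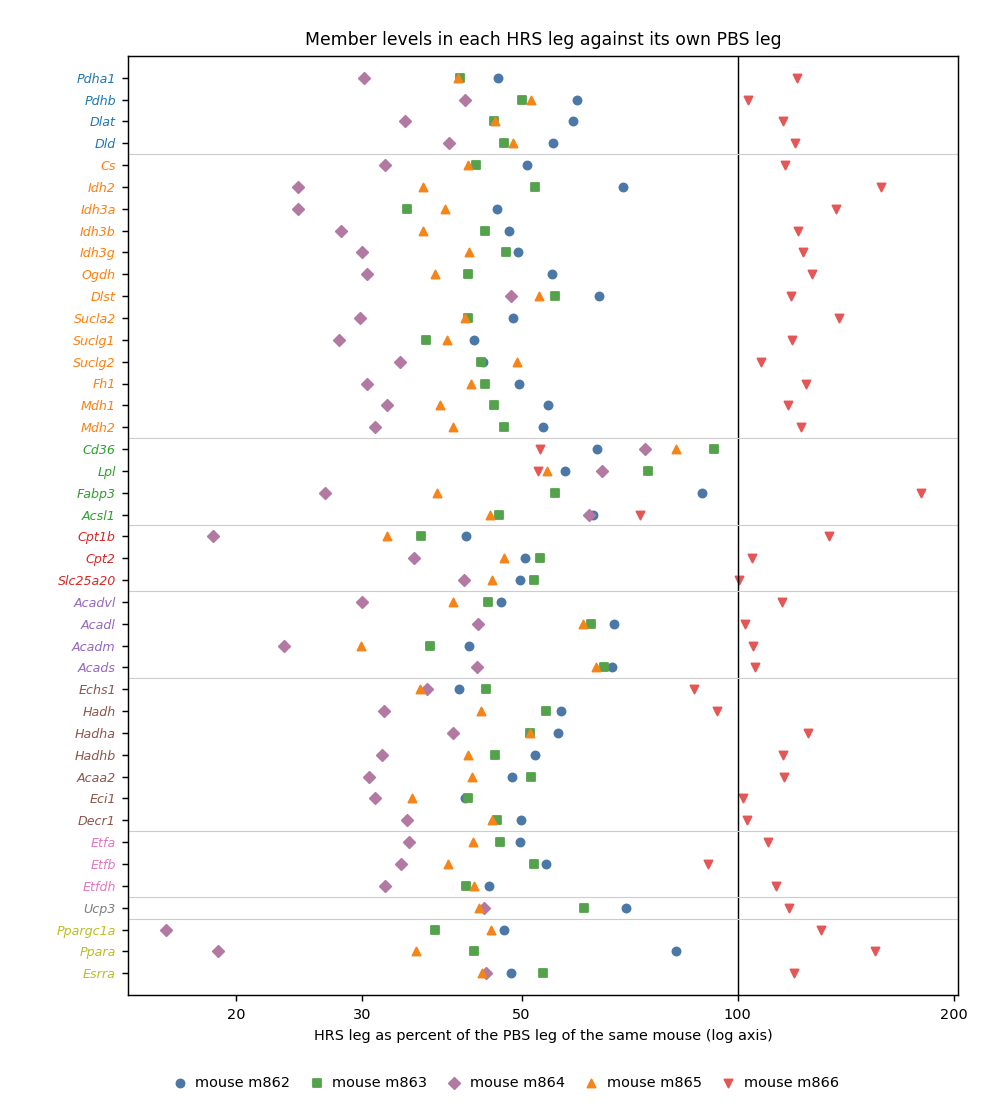
Level of each of the 42 members in the HRS leg as a percent of the PBS leg of the same mouse (log axis), 1 symbol per mouse, members grouped by role with gray lines between roles. All symbols of mice m862 to m865 lie left of 100%, with mouse m864 lowest for most members, and mouse m866 lies right of 100% for 36 members.

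Promoter sequences were at hand for 37 of the 42 members (RefSeq, GRCm38.p6, 250 bases before to 50 after the start site), and 4 short motifs of factors known for mitochondrial and metabolic genes were searched on both strands. The NRF1 core GCATGCGC occurred in the windows of 6 members (Acadm, Esrra, Etfa, Etfdh, Ogdh and Ppara), or 16.2% of the 37, and in 3.05% of all 27025 genes with a window. The ERR element AAGGTCA occurred in 2 members (Acadm and Ogdh) and in 5.38% of all genes. The ETS core CCGGAAG was found in 5 members (Cpt2, Dlst, Idh3b, Idh3g and Slc25a20) and in 9.93% of all genes, and the cAMP response element TGACGTCA in 2 (Mdh2 and Ogdh) and in 2.03%. No match of 1 motif overlapped a match of another, and in Etfdh and Ppara a pair of NRF1 matches on opposite strands overlapped. A match is a description of the sequence only. The Etfdh window lies wholly inside the annotated gene (chr3:79603788-79629500, minus strand), so its matches need not lie upstream of the gene. The windows of 4 genes are printed 5′ to 3′ on the gene's own strand, with capitals marking every match of the 4 motifs. Acadm is shown because it had the largest fall of the 42 and holds 2 of the motifs (AAGGTCA as its reverse complement near the 5′ end, then the NRF1 core), Etfdh and Esrra as an electron carrier and a regulator with the NRF1 core, and Hadha, with no match, because its window overlaps that of its partner Hadhb.
Acadm, chr3:153944594-153944893, minus strand: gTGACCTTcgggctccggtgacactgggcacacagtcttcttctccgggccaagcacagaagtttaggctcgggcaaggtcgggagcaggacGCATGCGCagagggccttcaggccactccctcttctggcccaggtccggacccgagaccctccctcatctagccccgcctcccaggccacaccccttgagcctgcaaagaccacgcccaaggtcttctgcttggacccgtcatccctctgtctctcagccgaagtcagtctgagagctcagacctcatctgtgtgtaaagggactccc
Etfdh, chr3:79628718-79629017, minus strand: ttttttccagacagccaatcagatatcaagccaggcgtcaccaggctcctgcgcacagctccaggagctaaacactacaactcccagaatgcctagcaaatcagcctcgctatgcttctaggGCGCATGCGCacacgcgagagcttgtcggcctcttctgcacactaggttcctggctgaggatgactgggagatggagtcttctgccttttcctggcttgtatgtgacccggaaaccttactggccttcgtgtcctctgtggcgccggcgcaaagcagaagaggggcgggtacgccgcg
Esrra, chr19:6921759-6922058, minus strand: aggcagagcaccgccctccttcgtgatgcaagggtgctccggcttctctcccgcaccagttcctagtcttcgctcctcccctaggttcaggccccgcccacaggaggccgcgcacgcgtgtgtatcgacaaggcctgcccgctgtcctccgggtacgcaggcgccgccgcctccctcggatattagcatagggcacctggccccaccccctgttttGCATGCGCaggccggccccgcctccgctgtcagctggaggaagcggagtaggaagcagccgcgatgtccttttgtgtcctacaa
Hadha, chr5:30154931-30155230, minus strand: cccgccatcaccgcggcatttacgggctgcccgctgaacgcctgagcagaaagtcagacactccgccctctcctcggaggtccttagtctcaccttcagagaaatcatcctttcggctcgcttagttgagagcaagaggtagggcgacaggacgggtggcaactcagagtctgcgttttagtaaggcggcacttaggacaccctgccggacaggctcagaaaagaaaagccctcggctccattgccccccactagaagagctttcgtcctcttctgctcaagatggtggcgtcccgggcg
Hadha and Hadhb are transcribed away from each other, their RefSeq start sites lie 273 bases apart, and their 2 windows share 228 bases.

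All 4 subunits of the pyruvate dehydrogenase complex fell in the HRS legs (log2 fold changes -1.03 to -0.78, the largest adjusted p being 0.00288). Pdha1 (chrX:160122209-160138413, minus strand, GRCm38) encodes the alpha subunit of the decarboxylase. Its normalized counts in the HRS legs of mice m862 to m866 were 375, 302, 204, 317 and 691, against 810.1, 736, 677, 778 and 571 in the PBS legs of the same mice in that order. The HRS legs of mice m862 to m865 were below every PBS leg, and the HRS leg of mouse m866 lay within the PBS range. The groups differed by a log2 fold change of -1.03 (SE 0.24, adjusted p = 0.00210). PBS-only libraries had 702, 749.9, 608 and 669, and the HRS-MBP mice 274 and 312. Pdhb, the beta subunit of the same enzyme, had the smallest change of the complex. Its values were 124, 98.2, 70.3, 97.2 and 182 in the HRS legs and 207, 196, 168, 189 and 176 in the PBS legs, a log2 fold change of -0.78 (SE 0.18, adjusted p = 0.00247). Here too the same 4 HRS legs were below all PBS legs, and the PBS-only libraries (172, 192, 169 and 151) were above both HRS-MBP mice (78.7 and 84.6). Dlat, the acetyltransferase core, was 144 ± 60.8 in the HRS legs and 247 ± 24.5 in the contralateral legs (mean ± SD, n = 5 each). Dld, the dehydrogenase subunit that other alpha-keto acid dehydrogenases share, was 161 ± 62.9 and 269 ± 33.2.

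All 13 genes grouped under the TCA cycle fell, at log2 fold changes of -1.12 to -0.64 (median -0.96). The largest change was in Suclg1 (chr6:73248382-73276911, plus strand), the alpha subunit shared by both forms of succinyl-CoA ligase. It was measured at 113, 89.5, 64.4, 97.5 and 218 in the HRS legs of mice m862 to m866 and at 262, 243, 231, 248 and 183 in their PBS legs. The HRS legs of mice m862 to m865 were at or below 113, under all other libraries but the HRS-MBP mice (80.6 and 91.1), and the PBS-only libraries had 224, 234, 223 and 192. The test gave a log2 fold change of -1.12 (SE 0.23, adjusted p = 0.00115). Dlst (chr12:85110833-85134845, plus strand), the succinyltransferase of the alpha-ketoglutarate dehydrogenase complex, changed least. Its HRS legs had 214, 179.8, 143, 177 and 315 and its PBS legs 334, 324, 297, 335 and 265, a log2 fold change of -0.64 (SE 0.17, adjusted p = 0.00426), with 299, 338, 283 and 287 in the PBS-only libraries and 170.0 and 201 in the HRS-MBP mice. Mouse m864 was again lowest and mouse m866 highest among the HRS legs.

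Citrate synthase (Cs), the entry step, was 471 ± 217 in the HRS legs and 861.6 ± 87.7 in the contralateral legs. The 3 subunits of the NAD-dependent isocitrate dehydrogenase changed by similar amounts: Idh3a by -1.11, Idh3b by -1.05 and Idh3g by -0.95 on the log2 scale. Idh2, the NADP-dependent mitochondrial enzyme, had the least certain change of the cycle, a log2 fold change of -0.86 (SE 0.28, adjusted p = 0.0169). Its PBS legs ranged from 144 to 282, and with the mouse as a block its adjusted p was 0.0919. Ogdh, the dehydrogenase subunit acting with Dlst, changed by -0.97. Sucla2 and Suclg2, the ATP- and GTP-forming partners of Suclg1, changed by -0.96 and -0.95. Fumarase (Fh1) changed by -0.96, and the cytosolic and mitochondrial malate dehydrogenases Mdh1 and Mdh2 by -0.95 and -0.94.

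**Figure D2:**
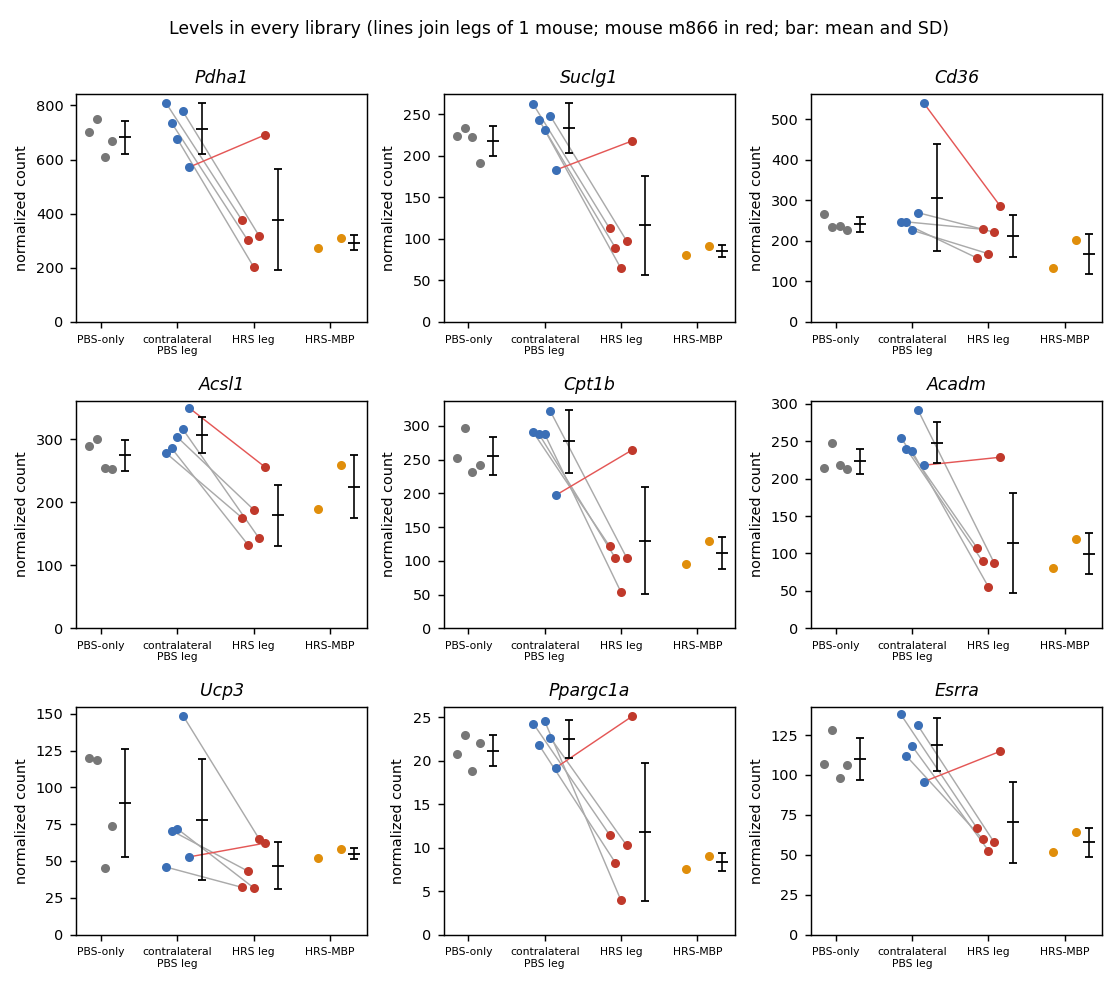
Normalized count of 9 members in each of the 16 libraries (axes from 0), with gray lines joining the legs of 1 mouse, red for mouse m866, and the mean and SD of each group beside the points. For Pdha1, Suclg1, Cpt1b, Acadm, Ppargc1a and Esrra the red line rises while the gray lines fall; for Cd36 and Acsl1 all 5 lines fall, and Ucp3 varies widely among PBS libraries.

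Of the 4 genes of fatty acid uptake and activation, Lpl and Acsl1 fell, and Cd36 and Fabp3 did not pass the test. Cd36 (chr5:17781690-17888801, minus strand), a fatty acid translocase found on muscle, fat, endothelial and myeloid cells, had the smallest change of all 42. Its HRS legs had 158, 228, 168, 221 and 287 and the PBS legs 247, 247, 226, 269 and 539.9. The HRS value was the lower one in all 5 mice, but the HRS legs of mice m863 and m866 were within the range of the PBS legs, and the PBS leg of mouse m866 stood far above the rest. The difference was a log2 fold change of -0.48 (SE 0.22, adjusted p = 0.0768), and -0.37 (adjusted p = 0.0329) without mouse m866. PBS-only libraries had 267, 234, 237 and 225 and the HRS-MBP mice 133 and 202.

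Lpl encodes lipoprotein lipase, which frees fatty acids from circulating triglyceride and is also abundant in fat. It was 497 ± 141 in the HRS legs and 836 ± 307 in the contralateral legs, a log2 fold change of -0.73 (SE 0.22, adjusted p = 0.00921), and its PBS leg of mouse m866 was the highest of all libraries at 1371. The adipocyte marker sum moved with these genes: it was 7286 normalized counts in that PBS leg, 111 to 1106 in the HRS legs and 838 to 1364 in the other PBS legs, and all 10 of its markers were called lower in the HRS legs. The part of fat in the levels of Cd36 and Lpl was not tested. Acsl1 (chr8:46471037-46536051, plus strand), a long-chain acyl-CoA synthetase, had 175, 133, 188, 142 and 256 in the HRS legs and 278, 286, 303, 315 and 350.1 in the PBS legs. The groups did not overlap, all 5 mice were lower in the HRS leg, and the test gave a log2 fold change of -0.81 (SE 0.16, adjusted p = 0.000794). In the PBS-only libraries it was 289, 301, 254 and 253; the HRS-MBP mice had 189 and 259.6. Fabp3, the fatty acid binding protein of heart and oxidative muscle, was 63.5 ± 26.7 and 101 ± 33.7, a log2 fold change of -0.69 (SE 0.29, adjusted p = 0.0539). It was below its PBS leg in 4 of 5 mice, and without mouse m866 the difference was -1.07 (adjusted p = 0.00160).

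All 3 carnitine shuttle genes fell. Cpt1b (chr15:89416405-89425863, minus strand), the muscle form of carnitine palmitoyltransferase 1 and the controlled entry step of fatty acids into mitochondria, changed most. HRS legs of mice m862 to m866 had 122, 104, 53.6, 104 and 265 normalized counts and the PBS legs 291, 288, 288, 322 and 198. In mouse m864 the HRS leg was at 18.6% of its PBS leg, and in mouse m866 at 134%. The groups differed by a log2 fold change of -1.27 (SE 0.29, adjusted p = 0.00220), or -1.69 without mouse m866. Its level was 253, 297, 231 and 242 in the PBS-only libraries and 94.7 and 129 in the HRS-MBP mice. Cpt1b overlaps an annotated neighbour on the same strand, so reads at that boundary could be split between them. Slc25a20 (chr9:108662088-108684641, plus strand), the carnitine-acylcarnitine translocase of the inner membrane, changed least of the 3. It had 32.7, 33.8, 25.1, 34.8 and 58.2 in the HRS legs, 65.7, 65.1, 60.4, 76.4 and 58.0 in the PBS legs, 60.6, 64.1, 66.5 and 54.2 in PBS-only libraries and 35.3 and 46.3 in HRS-MBP mice. The HRS and PBS legs of mouse m866 were nearly equal, and the test gave a log2 fold change of -0.86 (SE 0.17, adjusted p = 0.000835). Cpt2, the transferase of the inner membrane, was 41.1 ± 17.4 against 71.3 ± 2.89.

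The 4 acyl-CoA dehydrogenases, which take the first step of each beta-oxidation cycle on chains of different length, all fell in the HRS legs, by amounts that ranged from the largest to nearly the smallest of the 42 genes. Acadm (chr3:153922357-153944632, minus strand), the medium-chain enzyme whose promoter is printed above, had 107, 89.3, 55.2, 87.3 and 229 in the HRS legs and 255, 239.7, 236, 292 and 218 in the PBS legs. In mice m862 to m865 the HRS legs lay at 107 or below and all PBS legs at 218 or above, with the HRS leg of mouse m866 among the latter. The test gave a log2 fold change of -1.28 (SE 0.26, adjusted p = 0.00107), and -1.62 (adjusted p = 1.40e-06) without mouse m866. PBS-only libraries had 214, 248, 218 and 213 and HRS-MBP mice 80.9 and 119. Acads (chr5:115110299-115119346, minus strand), the short-chain enzyme, had 64.3, 59.5, 38.6, 60.4 and 89.2 against 96.3, 91.3, 89.0, 95.1 and 84.6. The HRS legs of mice m862 to m865 were again below all PBS legs, at a smaller distance, a log2 fold change of -0.59 (SE 0.16, adjusted p = 0.00493), with 85.1, 94.4, 87.2 and 73.7 in the PBS-only libraries and 44.4 and 42.7 in the HRS-MBP mice. Acadvl, the very long-chain enzyme, changed by -1.02 and Acadl, the long-chain enzyme, by -0.62. The order of the 4 differences was Acadm, Acadvl, Acadl, Acads, and the 95% intervals of the 4 overlapped.

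All 7 later enzymes of beta-oxidation fell, between -1.12 and -0.75 on the log2 scale. Eci1 (chr17:24426641-24439348, plus strand), an enoyl-CoA isomerase for unsaturated chains, had 37.7, 32.5, 23.5, 31.7 and 72.7 in the HRS legs and 90.2, 77.2, 75.1, 90.2 and 71.4 in the PBS legs. Mouse m866 had nearly the same level in both legs, and the other 4 HRS legs were at most 37.7. The difference was a log2 fold change of -1.12 (SE 0.22, adjusted p = 0.000704), and the gene stood at 61.1, 80.9, 69.1 and 62.2 in the PBS-only libraries and 28.2 and 34.1 in the HRS-MBP mice. Hadha (chr5:30118304-30155162, minus strand), the alpha subunit of the mitochondrial trifunctional protein, had the smallest change of this role. It was 185, 169, 125, 175 and 317 in the HRS legs and 328, 329, 311, 341 and 253 in the PBS legs, a log2 fold change of -0.75 (SE 0.19, adjusted p = 0.00389), with 303, 359, 262 and 303 in PBS-only libraries and 165 and 202 in HRS-MBP mice. Its HRS leg of mouse m866 exceeded the PBS leg of that mouse and was inside the range of the other PBS legs. Its partner Hadhb changed by -0.94. Echs1, the short-chain enoyl-CoA hydratase, changed by -1.11, and Hadh, the hydroxyacyl-CoA dehydrogenase, by -0.92; both were lower in all 5 mice. Acaa2, the last thiolase step, changed by -0.94, and Decr1, a dienoyl-CoA reductase, by -0.94.

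The electron transfer flavoprotein accepts electrons from the acyl-CoA dehydrogenases and hands them to the respiratory chain, and its 3 genes changed by almost equal amounts. Etfdh (chr3:79603788-79629500, minus strand), the membrane-bound oxidoreductase, had 57.4, 51.6, 35.5, 57.0 and 104 in the HRS legs and 127, 123, 110.1, 133 and 92.3 in the PBS legs. The HRS legs of mice m862 to m865 stood below every PBS library, and the test gave a log2 fold change of -1.01 (SE 0.21, adjusted p = 0.00135). PBS-only libraries had 111, 123, 108 and 100.2 and HRS-MBP mice 50.3 and 77.0. Etfa, the alpha subunit, had the smallest change of the 3. Its values were 78.2, 72.0, 51.6, 70.0 and 149 against 157, 154, 148, 164 and 135, a log2 fold change of -0.94 (SE 0.20, adjusted p = 0.00150). In the PBS-only libraries Etfa was 129.9, 153, 142 and 126, all above the HRS-MBP mice (55.1 and 75.3). Etfb, the beta subunit, was lower in the HRS leg of all 5 mice and changed by -0.97 (adjusted p = 0.000875).

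Ucp3 (chr7:100472990-100486432, plus strand), an uncoupling protein of the mitochondrial inner membrane of skeletal muscle, varied widely between animals. In the HRS legs it was 32.031, 43.1, 31.8, 64.8 and 62.1 and in the PBS legs 45.9, 70.6, 71.9, 149 and 52.7. Mouse m865 had the highest PBS leg of all and the highest HRS leg. The PBS-only libraries were 120.0, 119, 45.4 and 73.5, the first 2 from mouse m867 and the others from mouse m868, and the HRS-MBP mice had 52.2 and 57.8. The groups overlapped, and the difference did not pass the test, a log2 fold change of -0.67 (SE 0.33, adjusted p = 0.0876). With the mouse as a block, which compares legs of 1 animal, the same difference had an adjusted p of 0.0475, and 4 of 5 mice were lower in the HRS leg.

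All 3 regulators fell, Ppara least surely. Ppargc1a (chr5:51454250-51567726, minus strand), a coactivator of mitochondrial gene transcription, had 11.5, 8.28, 3.93, 10.3 and 25.1 normalized counts in the HRS legs and 24.3, 21.8, 24.6, 22.6 and 19.2 in the PBS legs. In mouse m864 the HRS leg had 15.993% of the level of the PBS leg, the lowest share of any member in any mouse, and the HRS leg of mouse m866 was above all PBS legs. The difference was a log2 fold change of -1.12 (SE 0.31, adjusted p = 0.00569), with 20.8, 23.0, 18.8 and 22.1 in the PBS-only libraries and 7.58 and 9.05 in the HRS-MBP mice. Esrra (chr19:6910977-6921840, minus strand), the estrogen-related receptor alpha whose promoter is printed above, had 66.6, 59.8, 52.6, 57.8 and 115 in the HRS legs and 138, 112, 118, 131 and 95.8 in the PBS legs. In mice m862 to m865 the HRS legs were at 66.6 or below and no PBS leg was under 95.8. The difference was a log2 fold change of -0.80 (SE 0.18, adjusted p = 0.00174), and PBS-only libraries (107, 128, 98.3 and 106) again exceeded the HRS-MBP mice (51.5 and 64.2). Ppara (chr15:85734983-85802819, plus strand), the nuclear receptor that responds to fatty acids, had low counts, with 1.13, 0.680, 0.375, 0.534 and 1.46 in the HRS legs and 1.38, 1.58, 1.99, 1.4998 and 0.942 in the PBS legs. All these values were above what 3 reads would be worth (0.0324 to 0.364 normalized counts, by library). The groups overlapped through mice m862 and m866, and the test gave a log2 fold change of -0.61 (SE 0.22, adjusted p = 0.0253). With the mouse as a block its adjusted p was 0.12481, and without mouse m866 0.00133. PBS-only libraries had 1.53, 1.54, 1.82 and 2.35 and HRS-MBP mice 0.672 and 0.556.

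Since markers of other cells were higher in the HRS legs, the members were also read relative to the fibre, by subtracting in every library the mean log2 level of the 26 sarcomere genes. On the authors' scale, 20 of those 26 genes were called lower in the HRS legs and none higher (median -1.11 on the log2 scale). On the sarcomere scale, none of the 42 members was lower (1.07% of all genes were), 5 were higher (82.5% of all genes were) and 37 did not pass the test. Their median was 0.18, against 1.19 over all genes. The 5 higher members were Acads (0.52, SE 0.17), Acadl (0.49, SE 0.17), Dlst (0.47, SE 0.14), Hadha (0.37, SE 0.13) and Dld (0.31, SE 0.13), with limma adjusted p of 0.00698 to 0.0351. These had been among the smaller falls on the authors' scale. The same amount is subtracted from every gene of a library, so the order of the log2 fold changes is fixed across the scales. With the mouse as a block, 0 of the 42 were called on this scale (49.6% of all genes were called higher), also 0 at an unadjusted p below 0.05, and the adjusted p of these 5 ran from 0.103 to 0.258. With the median of the sarcomere genes in place of their mean, 1 member was called (76.2% of all genes were called higher). Without mouse m866, 16 members were higher (89.8% of all genes were), with a median of 0.27; leaving out 1 of its legs gave 11 without the HRS leg (87.4% of all genes) and 10 without the PBS leg (85.6%). Acadm and Cpt1b, with the largest falls on the authors' scale, were at -0.17 (95% interval -0.46 to 0.12) and -0.15 (-0.40 to 0.10), so a fall beyond that of the sarcomere genes was not detectable for them within those bounds.

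**Figure D3:**
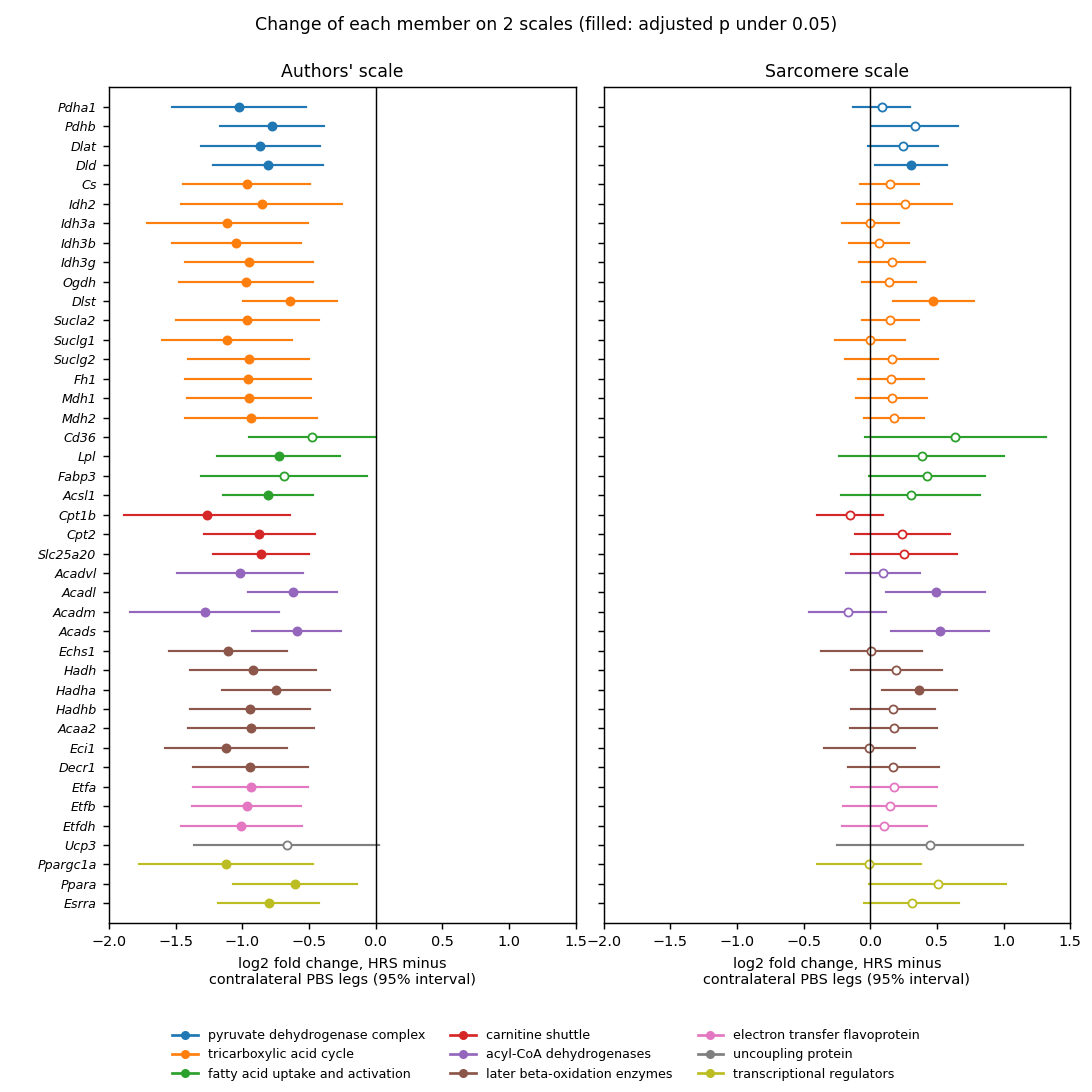
Log2 fold change of each member between HRS and contralateral PBS legs, with its 95% interval, on the authors' scale (left) and after subtracting the mean of 26 sarcomere genes (right), colored by role and filled where the adjusted p is below 0.05. On the left, 39 filled points lie below 0; on the right the intervals of 36 members include 0 and the 5 filled points are above it.

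Ratios between partner genes within a library do not move with a change common to both, and 5 of them were compared. The ratio of Suclg2 to Sucla2, the GTP- and ATP-forming subunits, had a mean log2 value of -2.96 ± 0.13 in the HRS legs and -2.97 ± 0.18 in the contralateral legs (SD, n = 5 each, exact two-sided permutation p = 0.937). Mdh1 to Mdh2, the cytosolic and mitochondrial forms, was -0.54 ± 0.08 and -0.52 ± 0.08 (exact p = 0.738). Differences of these 2 ratios were within the spread between libraries. The ratio of Hadha to Hadhb, the subunits of 1 protein, was 2.65, 2.63, 2.82, 2.89 and 2.43 in the HRS legs of mice m862 to m866 and 2.46, 2.35, 2.25, 2.38 and 2.24 in their PBS legs. It was higher in the HRS leg of 5 of 5 mice, by 0.20 on the log2 scale, with an exact permutation p of 0.0159 that became 0.0794 after Benjamini-Hochberg adjustment over the 5 ratios; sign flips over the 5 mice gave 0.0625, the smallest p that 5 mice allow. Without mouse m866 the adjusted exact p was 0.0476, at a difference of 0.22; that test leaves the pairing of legs out, and sign flips over 4 mice cannot pass the threshold.

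Cd36 relative to Cpt1b was 1.29, 2.19, 3.14, 2.12 and 1.08 in the HRS legs and 0.851, 0.856, 0.785, 0.837 and 2.73 in the PBS legs, higher in the HRS leg of 4 of 5 mice. The log2 difference was 0.79 (exact permutation p = 0.0873, adjusted 0.218), and 1.32 without mouse m866 (adjusted exact p = 0.0476). The exception was mouse m866, whose PBS leg had the high adipocyte sum; without that library alone the difference was 1.13 (adjusted exact p = 0.0397), and that of Lpl to Cpt1b 0.85. Lpl relative to Cpt1b gave 0.54 (adjusted exact p = 0.370) with all mice and 1.01 (adjusted exact p = 0.0476) without mouse m866. Sign flips over all 5 mice, which keep the legs paired, gave an exact p of 0.188 and 0.375, and the smallest p that 5 mice allow is 0.0625, so no ratio could pass in that test. Against the PBS-only mice the same 2 ratios were higher in the HRS legs by 0.95 and 0.69, with adjusted exact p of 0.0794 and 0.119. Hadha to Hadhb was higher there by 0.14 (adjusted exact p = 0.132).

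The PBS-only libraries, from 2 mice without HRS, were set against the contralateral legs of the immunized mice. None of the 42 members differed between the contralateral PBS legs and the PBS-only libraries at an adjusted p below 0.05 in limma, nor at an unadjusted p below 0.05, and 0.00609% of all genes (1 gene) did. The median over the members was 0.09, and the 95% intervals of single members reached from -0.96 to 0.89, so smaller differences were not detectable with 5 and 4 libraries. Compared with the PBS-only mice directly, the HRS legs had 38 members lower (22.6% of all genes) and none higher, 6 of them past -1 (5.87% of all genes), at a median of -0.85. The count past -1 was 0 without the HRS leg of mouse m864 (3.57% of all genes), 3 without that of mouse m863 (5.25%) and 26 without that of mouse m866 (9.28%). It also moved with the scaling: it was 21 with the same upper quartile (8.35% of all genes) and 0 with the same total or with voom (2.28% and 1.71%), where 31 and 29 members were called (11.8% and 10.4% of all genes) and the medians were -0.46 and -0.45. This comparison shares the HRS legs with the first. Idh2, Cd36, Lpl and Fabp3 had no call (-0.61, -0.21, -0.47 and -0.59), and Ucp3 had one (-0.89, adjusted p = 0.0368) that was lost with the legs of a PBS-only mouse averaged (adjusted p = 0.0892), with the same total (0.179), with voom (0.188), with no filter on low values (0.0504) and when any 1 of 6 of the 9 libraries was left out, at an adjusted p of up to 0.117. Its PBS-only values were 120.0, 119, 45.4 and 73.5, so both legs of mouse m867 lay above both of mouse m868. The largest differences were in Idh3a (-1.17), Cpt1b (-1.16) and Acadm (-1.14). The 4 PBS-only libraries come from 2 mice, and with the legs of a mouse averaged 29 members were called (15.0% of all genes), 5 of them past -1 (5.53% of all genes). The 9 that lost the call were Pdhb, Idh3g, Dlst, Sucla2, Acadl, Acads, Hadh, Ucp3 and Ppargc1a.

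In the HRS-MBP mice, 37 members were lower than in the PBS-only libraries (23.8% of all genes) and none higher, 25 of them past -1 (10.2% of all genes), with a median of -1.06. The count past -1 was 32 with the same upper quartile (13.6% of all genes), 13 with quantile normalization (17.1%) and 0 with the same total or with voom (3.82% and 3.11%), where the medians were -0.60 and -0.59 and 29 and 27 members were called (12.6% and 11.2% of all genes). Both HRS-MBP libraries were below all 4 PBS-only libraries for 39 of 42 members (all but Fabp3, Acsl1 and Ucp3) and for 30.6% of all genes. The largest differences were in Idh3a (-1.45, SE 0.39), Suclg1 (-1.34, SE 0.32), Sucla2 (-1.31, SE 0.34) and Ppargc1a (-1.30, SE 0.42). By role, the 17 genes of the pyruvate dehydrogenase complex and the TCA cycle were called, 16 of them past -1, but Idh2 and Dlst lost the call with the legs of a PBS-only mouse averaged, with libraries scaled to the same total and with voom (15 of 17 in each). Called too were 17 of the 22 genes of fatty acid uptake, shuttle, oxidation, electron transfer and uncoupling, 7 of them past -1; these became 10, 11 and 10 of the 22 under the same 3 alternatives, with 7, 0 and 0 past -1. The members without a call were Cd36, Fabp3, Acsl1, Acadl and Ucp3. The 4 PBS-only libraries are again 2 mice, and with their legs averaged 27 members were called (19.0% of all genes), 23 of them past -1 (9.56% of all genes). The 10 that lost the call were Idh2, Dlst, Lpl, Cpt1b, Slc25a20, Hadh, Hadha, Acaa2, Etfdh and Ppargc1a. The call count rests on mouse m860: with the other HRS-MBP mouse alone it was 9 (13.0% of all genes), 7 of them past -1 (7.85% of all genes, median -0.93), and with mouse m860 alone 31 (13.0% of all genes), 29 of them past -1 (8.38% of all genes), the lone library being assumed to vary like the other groups.

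Set directly against the HRS legs, no member differed in the HRS-MBP mice at an adjusted p below 0.05 in limma (0.56% of all genes did), and 1, Acads, had an unadjusted p below 0.05 (-0.46, SE 0.21, adjusted p = 0.327). Its 2 HRS-MBP values (44.4 and 42.7) lay above the HRS leg of mouse m864 and below the other 4. The median difference over the members was -0.22, and 0.02 without mouse m866, with 95% intervals of single members from -1.24 to 1.22. For 38 of 42 members both HRS-MBP values lay within the range of the 5 HRS legs. That range was wide, with mouse m866 at its top for 41 members and mouse m864 at its bottom for 39. The share of all genes inside their range was not computed, so the count is not a result about the members. The titles name an MBP fusion protein and a concentration for the HRS-MBP mice only, the treatment label is the same in both groups, and the leg of the HRS-MBP mice is not given. Without the HRS leg of mouse m864, 1 member (Acads) was called, as were 6.70% of all genes.

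Markers of other cells also differed between the groups, in both directions. In the HRS legs, all 12 macrophage, all 10 T cell and all 10 fibroblast markers were called higher, and all 10 adipocyte markers lower; of 10 endothelial markers 1 was higher and 2 lower, and of 10 genes of slow and oxidative fibres 7 were lower and none higher. The summed macrophage markers were 1333 to 6620.1 normalized counts in the HRS legs, 156 to 407 in the contralateral legs, 135 to 296 in the PBS-only libraries and 5600.3 to 6017 in the HRS-MBP mice, and none was at 0. Summed T cell markers were 26.3 to 173 in the HRS legs, 2.02 to 4.68 in the contralateral legs, 2.17 to 3.40 and 134 to 182 in the PBS-only and HRS-MBP libraries, and up to 2 of the 10 were at 0 in a PBS-only library. The fibroblast sums were 2752 to 28544, 1256 to 3137, 1224 to 2381 and 6235 to 14543 in the same order of groups. The summed level of the 42 members was 3954 to 11292 in the HRS legs, 10638 to 12816 in the contralateral legs, 10414 to 12162 in the PBS-only libraries and 4908 to 5989.7 in the HRS-MBP mice. The HRS leg with the highest macrophage and T cell sums, mouse m864, had the lowest member sum, and the one with the lowest marker sums, mouse m866, had the highest. The part of the added cells in the fall of the members was not tested.

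**Figure D4:**
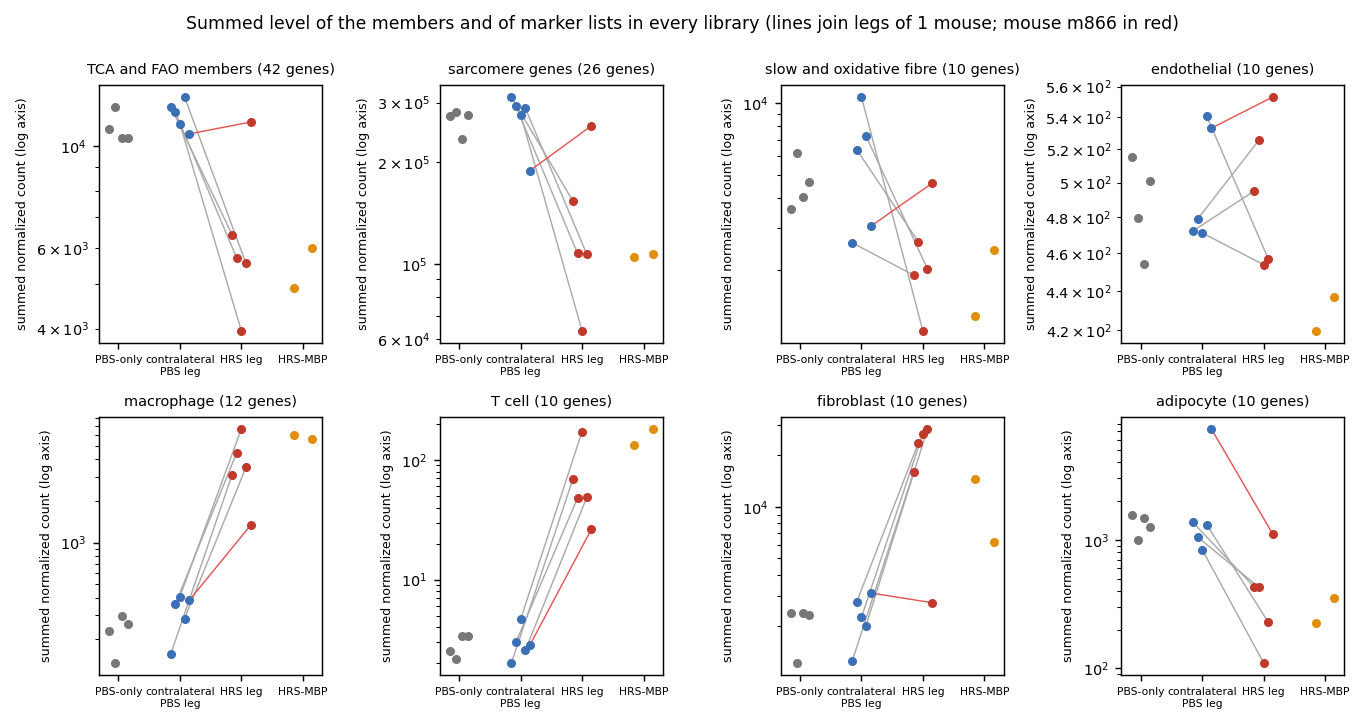
Summed normalized count (log axes, each with its own range) of the 42 members and of 7 marker lists in each of the 16 libraries, with lines joining the legs of 1 mouse and mouse m866 in red. The members and the sarcomere genes fall together in 4 mice and rise in mouse m866, macrophage and T cell markers rise in all 5, and the endothelial sums stay between 419.7 and 553.

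Among 88 other genes of the same pathways, 54 were called lower in the HRS legs, 10 higher and 24 had no call, with a median of -0.74. Of 20 genes of pyruvate and TCA metabolism 13 were lower and 2 higher, of 48 of fatty acid oxidation and supply 30 were lower and 7 higher, and of 20 regulators 11 were lower and 1 higher. Of all genes, 25.9% were called lower, as given above, and 35.1% higher. The 3 largest falls were in Pcx, Plin5 and Me1. Pcx, pyruvate carboxylase, which refills oxaloacetate in the cycle and is strong in fat, was 88.9, 49.8, 39.4, 71.5 and 262 normalized counts in the HRS legs of mice m862 to m866 and 305, 235, 347, 285 and 504 in their PBS legs, 320.3, 297, 182 and 285 in the PBS-only libraries and 64.5 and 42.4 in the HRS-MBP mice, with a log2 fold change between the legs of -2.01 (SE 0.39, adjusted p = 0.000740). Plin5, a lipid droplet protein of oxidative tissues, was 1.96, 2.46, 0.822, 3.38 and 13.3 normalized counts in the HRS legs of mice m862 to m866 and 11.1, 9.59, 13.9, 21.2 and 11.4 in their PBS legs, 8.44, 12.5, 9.10 and 8.80 in the PBS-only libraries and 2.71 and 5.85 in the HRS-MBP mice, with a log2 fold change between the legs of -1.95 (SE 0.45, adjusted p = 0.00221). Me1, the cytosolic malic enzyme that makes NADPH for fat synthesis, was 80.4, 73.4, 38.8, 68.8 and 234 normalized counts in the HRS legs of mice m862 to m866 and 295, 283, 213, 223 and 368 in their PBS legs, 287, 278.6, 249.98 and 242 in the PBS-only libraries and 54.3 and 69.8 in the HRS-MBP mice, with a log2 fold change between the legs of -1.72 (SE 0.33, adjusted p = 0.000682). In all 3 genes the HRS leg of mouse m866 was within the range of the PBS legs and the other 4 HRS legs were below it. On the sarcomere scale, where 1.07% of all genes were called lower and 82.5% higher, 6 of the 88 were called lower (Pcx, Plin5, Me1, Perm1, Acacb and Pdk2), 40 higher and 42 neither way. The 3 genes were there at -0.90, -0.83 and -0.60 (limma adjusted p of 0.00957, 0.0258 and 0.0219). With the mouse as a block the adjusted p became 0.0173, 0.119 and 0.0616, so Pcx alone of the 88 was called lower (0.292% of all genes) and 18 were called higher (49.6%). Adipocyte markers were lower in the same legs, and their part in Pcx and Me1 was not tested.

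The 3 largest rises were in Ucp2, Fabp5 and Pdk3. Ucp2, an uncoupling protein gene of immune and other cells, was 141, 168, 293, 156 and 71.1 normalized counts in the HRS legs of mice m862 to m866 and 11.1, 23.1, 27.2, 21.2 and 38.1 in their PBS legs, 19.2, 11.9, 18.8 and 18.2 in the PBS-only libraries and 337 and 429 in the HRS-MBP mice, with a log2 fold change between the legs of 2.72 (SE 0.33, adjusted p = 1.67e-05). Fabp5, a fatty acid binding protein found in macrophages and skin, was 33.8, 65.0, 57.8, 66.5 and 7.69 normalized counts in the HRS legs of mice m862 to m866 and 4.95, 4.68, 9.87, 4.15 and 14.4 in their PBS legs, 3.88, 4.61, 8.81 and 4.62 in the PBS-only libraries and 59.0 and 36.9 in the HRS-MBP mice, with a log2 fold change between the legs of 2.36 (SE 0.50, adjusted p = 0.00140). Pdk3, a kinase that inactivates pyruvate dehydrogenase, was 8.16, 8.54, 14.9, 8.81 and 3.83 normalized counts in the HRS legs of mice m862 to m866 and 0.865, 1.73, 1.57, 0.941 and 3.42 in their PBS legs, 1.45, 1.13, 1.09 and 1.30 in the PBS-only libraries and 10.1 and 11.9 in the HRS-MBP mice, with a log2 fold change between the legs of 2.08 (SE 0.30, adjusted p = 7.84e-05). The HRS and PBS legs did not overlap for Ucp2 and Pdk3, and for Fabp5 the HRS leg of mouse m866 was within the range of the PBS legs and below its own PBS leg. Singled out after their values were seen, Cpt1a, the liver-type form of the shuttle enzyme, was 41.2 ± 16.5 against 12.0 ± 3.81 normalized counts, a log2 fold change of 1.69 (SE 0.31, adjusted p = 0.000470), and Acsl5, an acyl-CoA synthetase, was 42.6 ± 15.4 against 12.3 ± 3.67 normalized counts, a log2 fold change of 1.74 (SE 0.23, adjusted p = 3.78e-05). Chosen in the same way, the 4 succinate dehydrogenase subunits Sdha, Sdhb, Sdhc and Sdhd changed by -1.05, -1.04, -0.80 and -0.70. The regulators Ppargc1b and Gabpa were at -0.05 and 0.01, with no call.

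**Figure D5:**
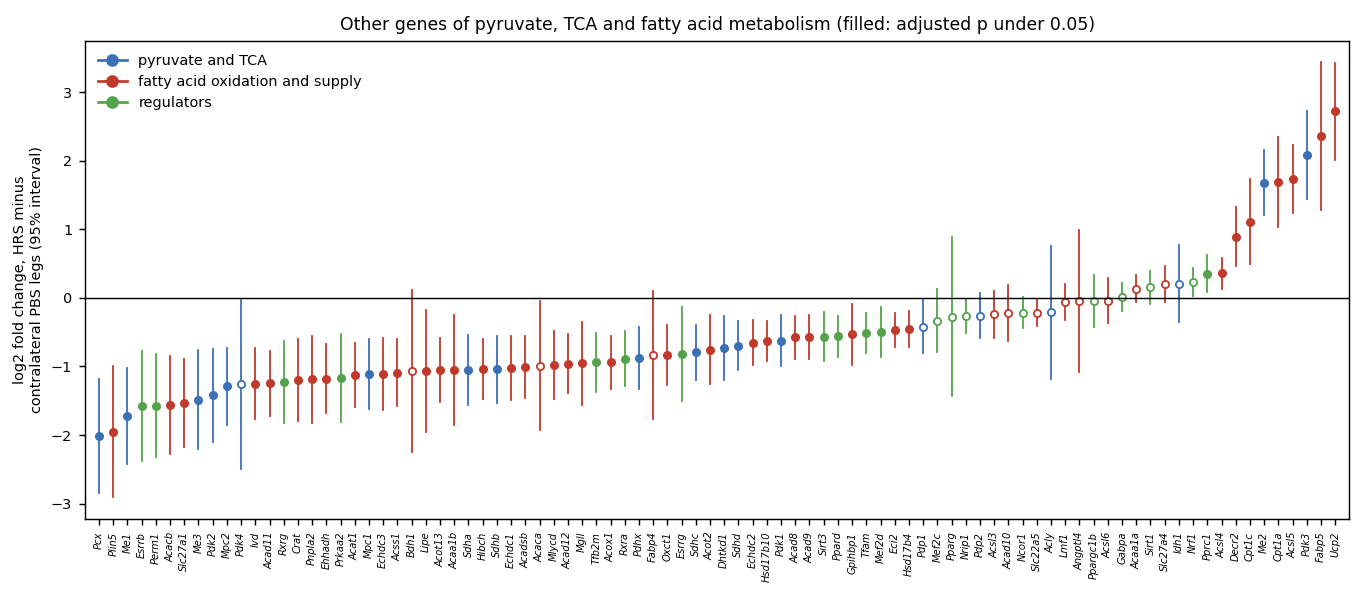
Log2 fold change between HRS and contralateral PBS legs for 88 other genes of pyruvate, TCA and fatty acid metabolism and their regulators, ordered by size, with 95% intervals, colored by subgroup and filled where the adjusted p is below 0.05. Filled points below 0 number 54 and those above 0 number 10, ending with Pdk3, Fabp5 and Ucp2 on the right.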

How the data were processed

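Bulk poly(A) RNA libraries of hamstring muscle (16 libraries from 9 mice) were analysed from the deposited table of normalized counts, a signal made by the authors that is not a raw count. The submitters' processing notes name STAR 2.7.8a, limma and the builds mm39 and GRCm39, whereas the coordinates of the table match GRCm38. Its gene length is the genomic span. Between 75.4% and 77.7% of low values (up to 20 steps, tolerance 0.02) were whole multiples of a library's smallest step, so read counts were not recovered and tests for raw counts were not used; voom, run as an alternative, treats the normalized values as counts. No column of the table was left unused.

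Groups were taken from the sample labels. Genes with a mean of at least 0.5 normalized counts (16414 of 26382) were tested on log2(value + 0.5) in 1 fit of the 4 groups with limma 3.58.1 in R 4.3.3 (mean trend in eBayes), with Benjamini-Hochberg adjustment over all tested genes and calls at an adjusted p below 0.05 or, as a second rule, also past a log2 fold change of 1 in size. The self-test on simulated data used 200 changed genes. Ratios were compared by exact two-sided permutation in Python 3.11.15 with SciPy 1.17.1. P-values measure the spread between these libraries, and the 4 PBS-only libraries come from 2 mice. Intervals are 95% intervals of the fit.

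The legs of mice m862 to m866 are paired by the mouse number in the labels. Over all tested genes, the deviation of a PBS leg from its group mean correlated with that of the HRS leg at 0.12, 0.16, 0.10, -0.03 and -0.37 for mice m862 to m866. With the mouse as a block, 38 members were called (16.2% of all genes).

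Members and lists were chosen with earlier results of these data known. Values in every library are given for the member with the largest and the one with the smallest change in each role and for each regulator, and for the 3 largest falls and rises past the threshold among 88 other pathway genes. Promoters were taken from RefSeq (GRCm38.p6). Alternatives covered the pseudocount, the filter, the scaling, the variance model, voom, the mouse block, averaged legs and each library left out. One further gene of the pathway is not reported here.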

Additional observations from a re-analysis of the deposited data

Results flagged for a closer look

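In groups of 4 or 5 libraries, 165 sets of values were searched for a library that stands far from the others by Dixon's criterion, which chance alone meets in about 1 of 20 sets. There were 23 such values, 7 of them in the HRS leg and 8 in the PBS leg of mouse m866. The HRS leg of mouse m866 stood above the other 4 HRS legs for Suclg2 (61.0 normalized counts), Echs1 (140.5), Eci1 (72.7), Decr1 (96.6), Etfa (149) and Esrra (115). The mean log2 of the fibroblast markers was lowest there, at 7.16. The contralateral PBS leg of mouse m866 stood above the other 4 for Cd36 (539.9) and Lpl (1371), for the mean log2 of the adipocyte markers (8.50), and for the ratios of Cd36 to Cpt1b (2.73), Lpl to Cpt1b (6.94) and Suclg2 to Sucla2 (0.156). It stood below them for Cpt1b (198) and for the mean log2 of the sarcomere genes (11.81). Among the other contralateral legs, Hadh was low in mouse m864 (134), Ucp3 was high in mouse m865 (149), and the ratio of Mdh1 to Mdh2 was low in mouse m862 (0.629). In the PBS-only mice, the left leg of mouse m867 was high for Fh1 (259), Acadm (248) and Hadhb (152) and low for the mean log2 of the fibroblast markers (6.20), and its right leg was low for the ratio of Suclg2 to Sucla2 (0.123).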

How the results depend on the processing

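Of the 42 members, 34 were called lower in the HRS legs than in the contralateral legs under each of 23 alternatives. A call was lost under at least 1 by 5 members, and the 3 without a call gained it under at least 1. The share of all genes called lower under every alternative was not computed. It was 11.0% with voom alone and 39.6% with quantile normalization alone. No called difference changed sign in any comparison. The count of members past a log2 fold change of -1 depended on the scaling. Against the contralateral legs it was 5 with quantile normalization (9.94% of all genes), 25 with the same upper quartile (7.80%) and 0 with the same total (1.97%) or with voom (1.53%). Against the PBS-only mice it was 21 with the same upper quartile and 0 with the same total or voom. For the HRS-MBP mice it was 32 with the same upper quartile, 13 with quantile normalization and 0 with the same total or voom, at medians of -0.60 and -0.59. The cause was not tested. Without both legs of mouse m866 the counts past -1 were 33 for the contralateral (10.6% of all genes) and 26 for the PBS-only comparison. The share for the latter was computed only without the HRS leg of that mouse, where 26 members and 9.28% of all genes were past -1. Without both legs, the median of HRS-MBP mice against HRS legs was 0.022, and 16 members were higher on the sarcomere scale (89.8% of all genes). On that scale 1 member was called with the median of the sarcomere genes (76.2%) and 0 with the mouse as a replicate block (49.6%). Without mouse m866 the log2 differences in ratio were 0.22 for Hadha to Hadhb, 1.32 for Cd36 to Cpt1b and 1.01 for Lpl to Cpt1b, and 3 ratios passed the threshold in the exact permutation test of 4 against 4 legs, which ignores the pairing. Sign flips, which keep it, gave 0.0625, 0.188 and 0.375 over the 5 mice, but cannot pass the threshold with 5 mice or with 4.

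With the mouse as a block, 38 members were called against the contralateral legs (16.2% of all genes). Past -1 there were 11 of them, a count whose share over all genes was not computed. Idh2 and Ppara lost the call, Ucp3 gained it, and no other member's call changed in that comparison.

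With 1 library left out at a time, members called ran from 38 to 42 against the contralateral legs (21.1% to 30.2% of all genes, medians -1.17 to -0.76). Past -1 they ran from 1 to 30 (3.39% to 9.74% of all genes). Against the PBS-only mice, members called ran from 35 to 41 (18.0% to 27.4%, medians -1.06 to -0.69), and past -1 from 0 to 26 (3.57% to 9.28%). For HRS-MBP against PBS-only mice they ran from 9 to 36 (13.0% to 24.5%, 7 to 29 past -1, medians -1.18 to -0.93), and for HRS-MBP mice against HRS legs from 0 to 1 (0.152% to 6.70%, medians -0.40 to 0.022). On the sarcomere scale, from 4 to 11 members were called higher (77.1% to 87.4% of all genes). The ratio differences ranged from 0.60 to 1.13 for Cd36 to Cpt1b, from 0.33 to 0.85 for Lpl to Cpt1b and from 0.17 to 0.23 for Hadha to Hadhb, with 0 to 2 ratios past the threshold. The limits are 5, 5, 4 and 2 libraries a group. A difference of a single member between the contralateral and PBS-only legs was not excluded inside its own 95% interval.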
